A study of Homo sapiens with 2 samples.

Results

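The 76 genes described here encode proteins of the mitochondrial ribosome and were taken from the 11579 named genes that had a value on both arrays of a study of Huh7 cells. Huh7 is an established human hepatocellular carcinoma line, and the study compared Huh7 cells carrying a lentiviral vector with Huh7 cells carrying a lentivirus that expresses a short hairpin RNA against CD133 (shCD133). Each condition was measured on 1 Illumina bead array, both groups being cells in standard culture that had been infected with a lentivirus, so no value has a replicate error and no difference was tested. Members were the protein-coding genes whose symbol on the array platform begins with MRPL (48 genes, the large subunit series) or MRPS (28 genes, the small subunit series) followed by a digit. A gene with several probes took the probe with the highest mean of both arrays, and the other probes are given as the only error that the data hold. All levels are the authors' normalized log2 intensities, and every difference is the log2 level with shCD133 minus the log2 level with vector. The series asks how STAT3 controls CD133 in liver cancer, and its arrays address which transcripts differ when CD133 is reduced.

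Mitochondria have their own ribosome, which translates only the messenger RNAs of the mitochondrial genome, all of which encode subunits of the respiratory chain and ATP synthase. Its RNAs come from that genome, whereas all its proteins are encoded in the nucleus, made in the cytosol and imported. Some have counterparts in the bacterial ribosome, and others were added in mitochondria. The large subunit joins amino acids and releases the chain near the inner membrane, and the small subunit binds the messenger RNA and reads its codons. Hepatocytes are rich in mitochondria and use their oxidative capacity for metabolism and urea synthesis. Symbols do not follow the structure in every case, since MRPS30 and MRPS18A sit in the large subunit of the human particle.

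The gene targeted by the hairpin, PROM1, which encodes CD133, was at 13.58 with vector and 10.83 with shCD133, a difference of -2.75 (6.72-fold lower). Of 11 hepatocyte and hepatoma markers 10 had a value, between 11.65 and 15.48, and their summed unlogged intensity was 184578 with vector and 166274 with shCD133. Their median difference was 0.06, with APOA2 at -1.81 and FGB at -1.32 the lowest and APOA1 at 0.63 the highest. Of 11 markers of leukocytes, fibroblasts and endothelium 6 had a value, and their summed intensity was 4682 with vector and 8187 with shCD133, with CD14 higher by 1.60, COL1A2 by 0.94 and COL1A1 by 0.74. Of the other 3, PDGFRB differed by 0.03, CD68 by -0.09 and PECAM1 by -0.16. The defining markers PTPRC, CD3E, COL3A1, VWF and CDH5 had no value on either array. The part of these shifts in the values below was not tested, and in bulk RNA fewer cells of a type and less RNA per cell cannot be told apart. Over all named genes the median difference was 0.11 and the SD was 0.64.

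Transcripts of the mitochondrial ribosome lay slightly above zero, with a narrower spread than all named genes. The median difference of the 76 genes was 0.19, and 60 of them (78.9%) were above 0, beside 59.2% of all named genes. The SD over the members was 0.36, beside 0.64 over all named genes. It was lower in the sets most like the members, 0.29 for cytosolic ribosomal proteins and 0.21 for subunits of oxidative phosphorylation. Levels of the members ran from 8.01 to 13.88 on a scale that spans 6.65 to 15.61 over all probes, so no member lay at an end of the scale. MRPL10, MRPS14 and MRPL48 were nearest the lower end, and MRPL11, MRPS12 and MRPS6 nearest the upper end. The agreement of probes sets what such small differences can show. Over the 2907 genes with more than 1 probe, the SD of the difference was 0.33 per probe, from the gap between a gene's brightest probes. Over the 22 members with several probes that SD was 0.25, or 0.15 without MRPL35. The 0.33 of all genes, a wider bound, is used below. By that measure 51 of the 76 members differed by no more than 1 SD, 18 were higher by more than it and 7 were lower by more than it. Those shares of the members were 23.7% and 9.21%, where 30.6% and 23.8% of all named genes lay outside the same bounds.

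At a size of 1.5-fold (a log2 difference of 0.58), 5 members were higher (6.58%) and 4 were lower (5.26%). Of all named genes, 12.3% were at least 1.5-fold higher and 16.3% at least 1.5-fold lower, so both shares of the members were below that of the whole array. On the brightest probes and the deposited scale, all 5 higher genes belonged to the MRPL series and all 4 lower genes to the MRPS series. This split moved with the scaling and the probe. After centring on the median gene it was 1 higher and 6 lower. With the trend on gene length or the trend on mean level removed it was 0 higher and 6 lower. MRPL3 was among the lower genes after centring (-0.64) and with the level trend removed (-0.64), but not with the length trend removed (-0.55). On the probe with the lowest mean, MRPS21 (0.73) was among the higher genes and MRPL35 (-1.12) among the lower. At 2-fold none was higher and 1, MRPS10, was lower, beside 2.08% and 8.26% of all named genes.

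**Figure D1:**
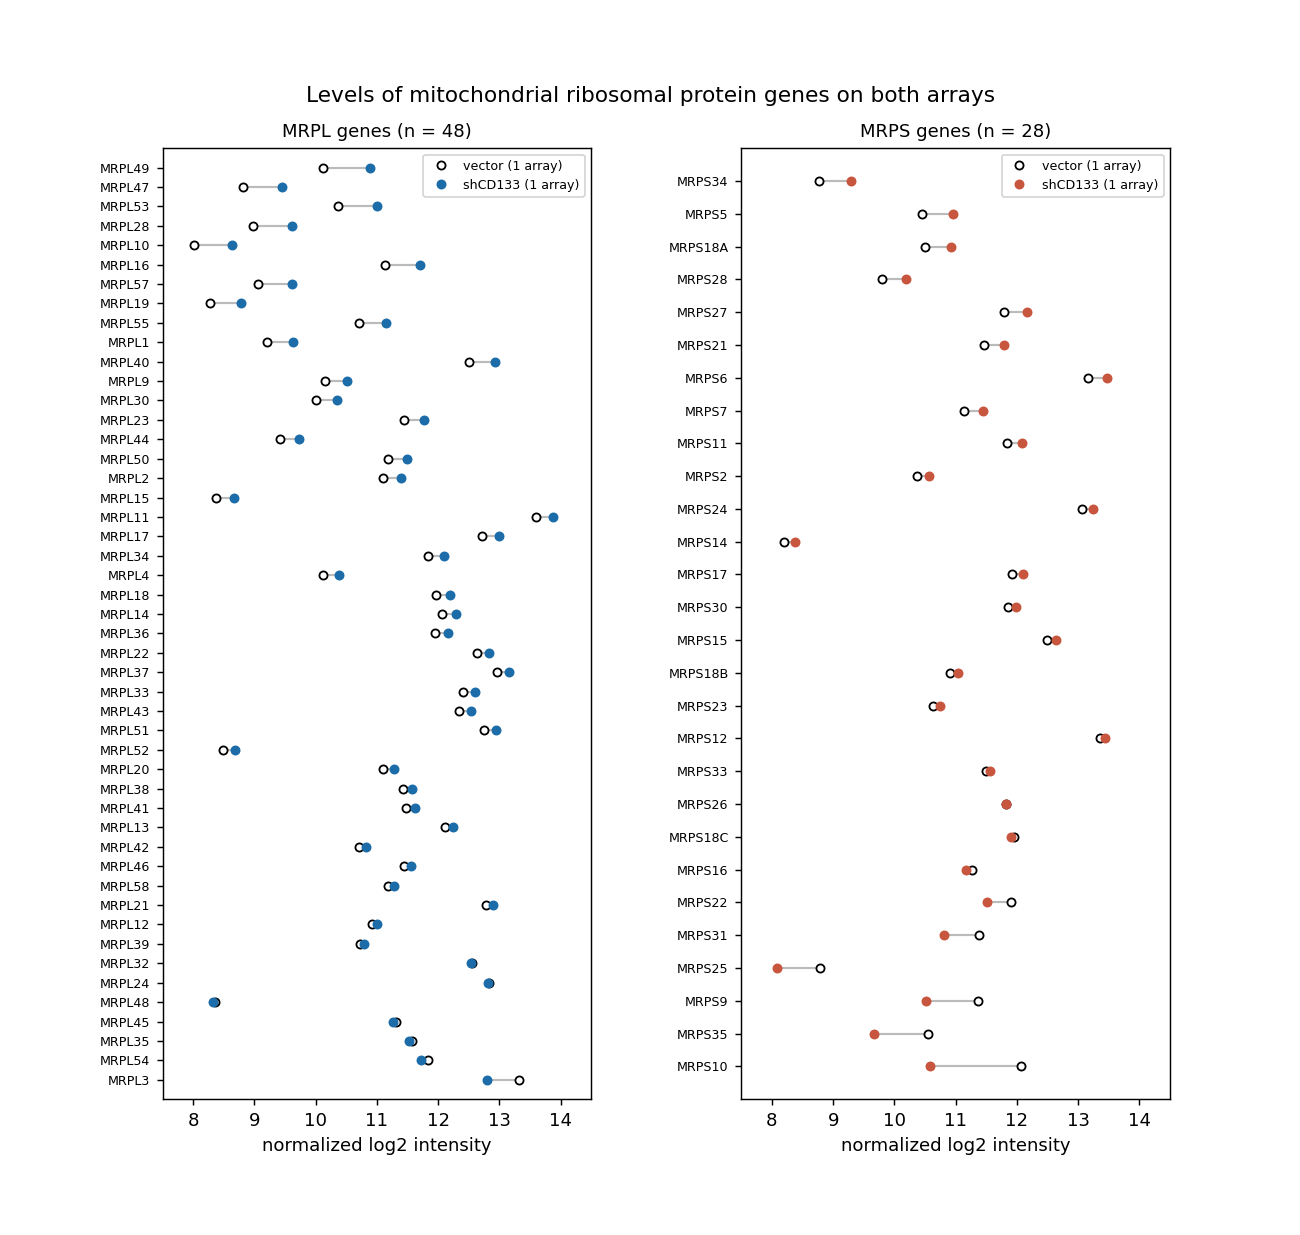
Normalized log2 intensity of each of the 76 genes with vector (open points) and with shCD133 (filled points), 1 array each, for the 48 MRPL and the 28 MRPS genes ordered by their difference. Most pairs of points lie close together with shCD133 to the right, and MRPS10 at the foot of the right panel has the widest gap, from 12.06 to 10.58.

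The large subunit series had a median difference of 0.22, and its quartiles were 0.12 and 0.35. Of its 48 genes 41 were above 0 and 37 were above the median gene of the array. The small subunit series had a median of 0.13, with quartiles of -0.07 and 0.32, and 19 of its 28 genes were above 0. The medians differed by 0.08, a gap that was not tested. The SD was 0.23 in MRPL and 0.48 in MRPS, beside 0.64 over all named genes. It was 0.23 in cytosolic RPL genes, 0.34 in cytosolic RPS genes and 0.48 over named genes shorter than 8 kb. Lower by more than 0.33 were 6 of 28 MRPS genes and 1 of 48 MRPL genes, beside 23.8% of all named genes. At least 1.5-fold lower were 14.3% of MRPS and 0% of MRPL genes, beside 16.3% of all named genes. With MRPS30 and MRPS18A counted in the large subunit, where structures place them, the medians were 0.22 over 50 genes and 0.13 over 26 genes.

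**Figure D2:**
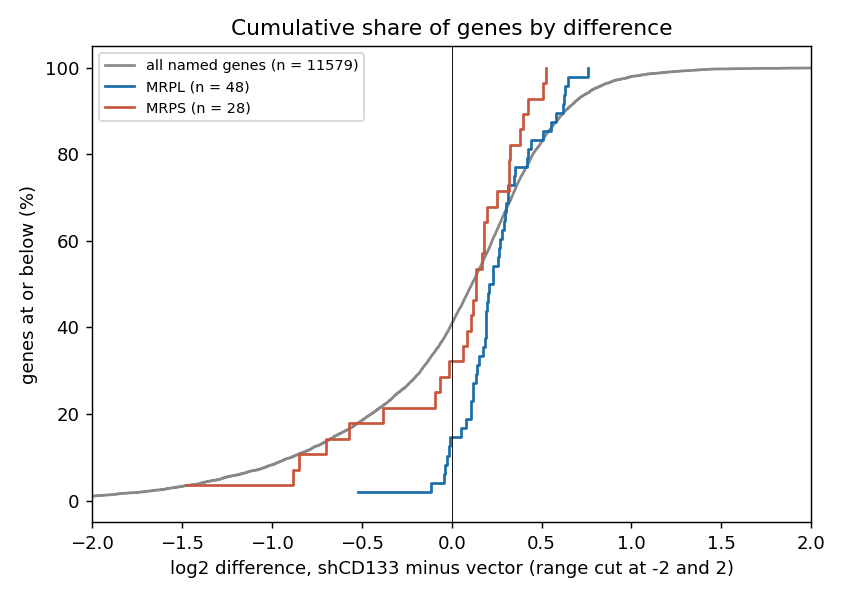
Cumulative share of genes (vertical axis, percent) at or below each log2 difference (horizontal axis, shCD133 minus vector) for all 11579 named genes, 48 MRPL genes and 28 MRPS genes. The MRPL curve rises steeply around its median of 0.22, while the MRPS curve has 6 genes from -1.48 to -0.38, then none until -0.09, and ends at 0.52.

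MRPL49, a mitochondria-specific protein of the large subunit, had the highest difference of all members. Its level was 10.13 with vector and 10.89 with shCD133, a difference of 0.76 (1.69-fold higher). MRPL47, the counterpart of bacterial L29 near the exit of the peptide tunnel, was at 8.81 and 9.46, a difference of 0.65. MRPL53, another mitochondria-specific protein, was at 10.36 and 10.996 (0.63). These genes had 1 probe each, so no second probe bears on them. MRPL28, the counterpart of bacterial L28, was at 8.98 with vector and 9.61 with shCD133 (0.62). MRPL10, which anchors the stalk that recruits translation factors, was at 8.01 and 8.63 (0.62), but its other probe differed by 0.16. MRPL12, the stalk protein that MRPL10 carries, differed by 0.08, and MRPL11 at the base of the stalk by 0.28 with a range of 0.19 to 0.36 over 3 probes. MRPL16, at 11.13 and 11.71 (0.58), lay just under the 1.5-fold size.

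Most of the large subunit lay in a narrow band. From MRPL57 (0.55) through MRPL19 (0.51), MRPL55 (0.44), MRPL1 (0.43) and MRPL40 (0.42) the differences declined to MRPL39 (0.05), and 41 genes in all were above 0. Proteins of the central protuberance, the top of the large subunit, spread over that band, with MRPL40 at 0.42, MRPL38 at 0.15, MRPL46 at 0.12 and MRPL48 at -0.03. MRPL45, which lies by the tunnel exit and contacts the inner membrane, differed by -0.04, while its other probe differed by 0.29. MRPL58, known also as a peptidyl-tRNA hydrolase that frees stalled chains, was at 11.18 and 11.28 (0.11). MRPL33 differed by 0.19 on its brightest probe and by -0.06 on the other. MRPL44, related to bacterial ribonuclease III, was at 9.41 and 9.73 (0.31).

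Only 7 MRPL genes were below 0. MRPL3, whose bacterial counterpart reaches toward the peptidyl transferase centre, was at 13.31 with vector and 12.79 with shCD133, a difference of -0.52 (1.44-fold lower), on 1 probe. The remaining 6 lay within 1 SD of a probe: MRPL54 differed by -0.11, MRPL35 and MRPL45 by -0.04, MRPL48 by -0.03, MRPL24 by -0.02 and MRPL32 by -0.01. On the brightest probes MRPL3 was thus the only gene of its series lower by more than that SD. The other probes of MRPL35 were at -1.35 and -1.12.

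MRPL35, the counterpart of bacterial L35, had the widest disagreement between probes of any member. Its brightest probe, annotated to transcript NM_145644, was at 11.57 with vector and 11.53 with shCD133. Its other probes, both annotated to NM_016622, were at 10.63 and 9.28 (-1.35) and at 9.42 and 8.30 (-1.12). Both probes of that transcript were thus at least 2-fold lower, while the probe of the other transcript hardly differed. Its probes spanned 1.31, beside 0.47 for the next of the 22 members with several probes and a median of 0.12. With the mean over its probes MRPL35 differed by -0.84, and it would join the genes at least 1.5-fold lower. Whether the transcripts differ or the probes do was not tested. The choice of probe also moved MRPL10 (0.62 and 0.16) and MRPS21 (0.32 and 0.73) across the 1.5-fold size, and it turned the sign of MRPL33, MRPL45 and MRPS12, all with probes between -0.06 and 0.29.

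**Figure D3:**
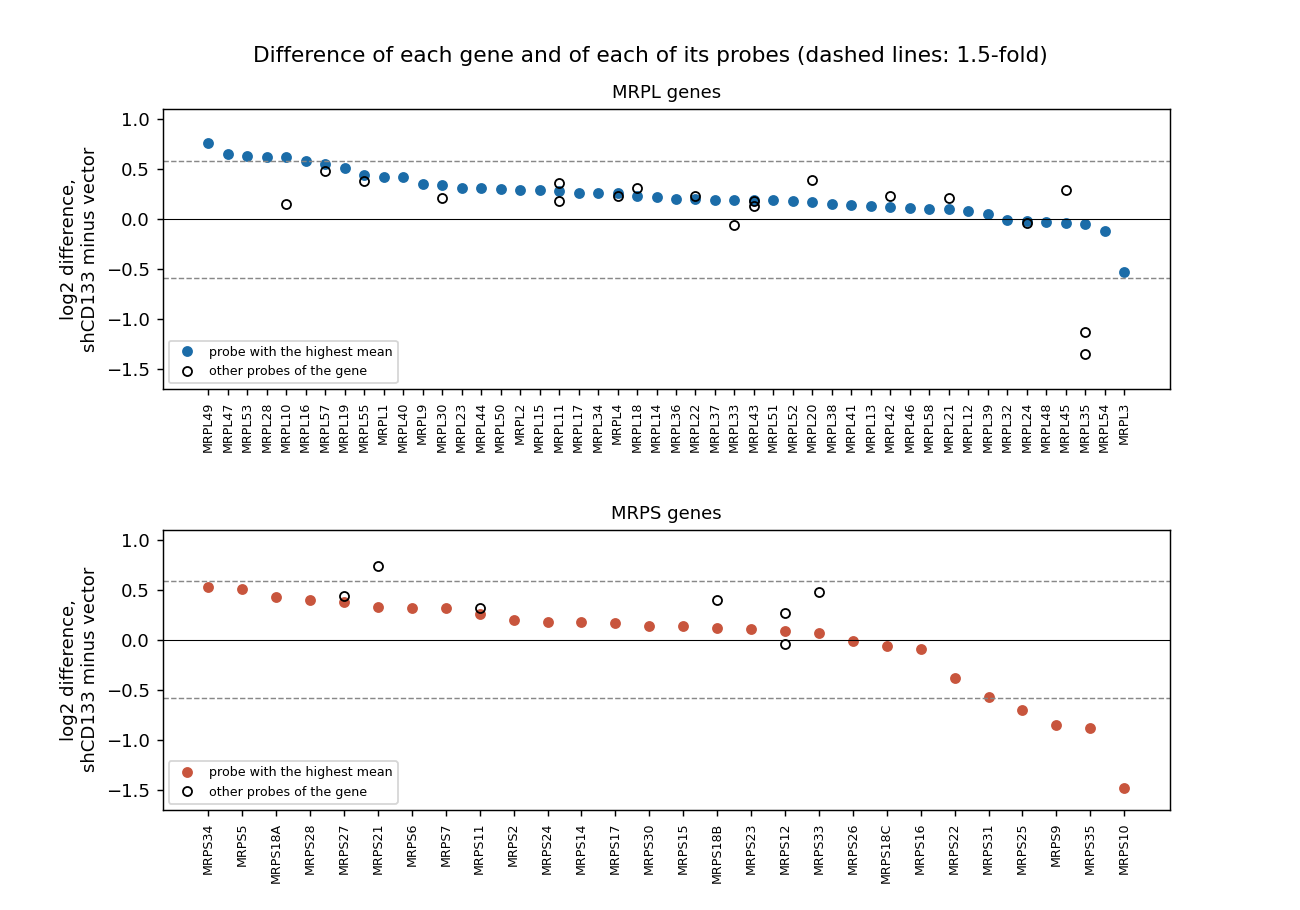
Log2 difference, shCD133 minus vector, of each gene on its brightest probe (filled) and on its other probes (open), with dashed lines at 1.5-fold. The open points of MRPL35 at -1.35 and -1.12 lie far from its filled point at -0.04, and other genes keep their probes closer together.

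In the small subunit series MRPS34, a mitochondria-specific protein, was highest at 8.77 with vector and 9.29 with shCD133 (0.52). MRPS5, whose bacterial counterpart lines the messenger entry site and affects decoding accuracy, was at 10.45 and 10.96 (0.51). MRPS18A, a large subunit protein in the structure, differed by 0.42, MRPS28 by 0.40, MRPS27, a pentatricopeptide repeat protein, by 0.38 (its other probe 0.44), and MRPS21 by 0.32 (its other probe 0.73). None of these reached 1.5-fold on its brightest probe. MRPS12, the counterpart of the decoding-centre protein S12, was at 13.35 and 13.43 (0.08), and its probes ranged from -0.05 to 0.27. The related MRPS18 genes differed by 0.42 (MRPS18A), 0.12 (MRPS18B) and -0.06 (MRPS18C), and MRPS30 by 0.13.

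The lower end of the small subunit series held the lowest differences of the particle on the brightest probes. MRPS10, the counterpart of bacterial S10 in the head of the small subunit, was at 12.06 with vector and 10.58 with shCD133, a difference of -1.48 (2.79-fold lower). It was the only member at least 2-fold lower on its brightest probe, and 3.48% of named genes had a lower difference. MRPS35, a mitochondria-specific protein, was at 10.55 and 9.67, a difference of -0.88 (1.84-fold lower). MRPS9, the counterpart of bacterial S9, whose tail reaches the transfer RNA in the P site, was at 11.37 and 10.52, a difference of -0.85 (1.80-fold lower). MRPS25, specific to mitochondria, was at 8.78 and 8.08, a difference of -0.70 (1.62-fold lower). Below the 1.5-fold size, MRPS31 differed by -0.57 (11.38 and 10.81) and MRPS22 by -0.38 (11.90 and 11.51). All 6 genes had 1 probe, so their differences rest on 1 probe and 1 array per condition. A gap separated them from MRPS16 (-0.09), the next gene of the series.

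Proteins with a bacterial counterpart and proteins specific to mitochondria both appeared at each end. Over both series the 45 genes with a bacterial counterpart had a median difference of 0.23 and the 31 mitochondria-specific genes of 0.13. Within MRPL these medians were 0.26 (29 genes) and 0.19 (19 genes), and within MRPS 0.18 (16 genes) and 0.09 (12 genes). These gaps were not tested.

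Gene length moved with the differences across the whole array, and the members are short genes. Their median genomic length was 8.64 kb, against 27.4 kb for all named genes, with a range from 0.677 kb to 111.5 kb. Across 11571 named genes with a length, length and difference had a Spearman's rho of -0.34. Over the 76 members it was -0.14, within MRPL -0.23 and within MRPS 0.01, a description across genes that share both arrays. Under 8 kb, the median difference was 0.19 for 32 members and 0.26 for all named genes of that length. From 16 kb on, it was 0.20 for 22 members and 0.0017 for all named genes of that length. With the running median over length removed, the median of the members was -0.03 and 33 of 76 were above 0, and the medians were 0.0042 for MRPL and -0.12 for MRPS. By length, the members' median with the trend removed was -0.08 under 8 kb, -0.06 from 8 to 16 kb and 0.10 from 16 kb on, where 15 of 22 were above 0.

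The lowest genes stayed below the running median of genes of like length, which takes off the centre and not the spread. Relative to genes of like length MRPS10 differed by -1.73, MRPS35 by -0.86, MRPS25 by -0.83, MRPS9 by -0.80, MRPS22 by -0.60, MRPS31 by -0.59 and MRPL3 by -0.55. MRPS10 spans 11.1 kb, so its difference stands among short genes. MRPS35, MRPS25, MRPS9, MRPS31 and MRPL3 span 16 kb or more, where the spread was wider. At least 1.5-fold lower were 6.05% of named genes from 8 to 16 kb and 22.2% of those from 16 kb on. The same shares of the members were 4.55% and 13.6%. At the other side, long members such as MRPL1 (89.96 kb), MRPS28 (111.5 kb) and MRPS27 (100.8 kb) were above genes of like length by 0.58, 0.58 and 0.56. MRPL49 was above them by 0.48.

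**Figure D4:**
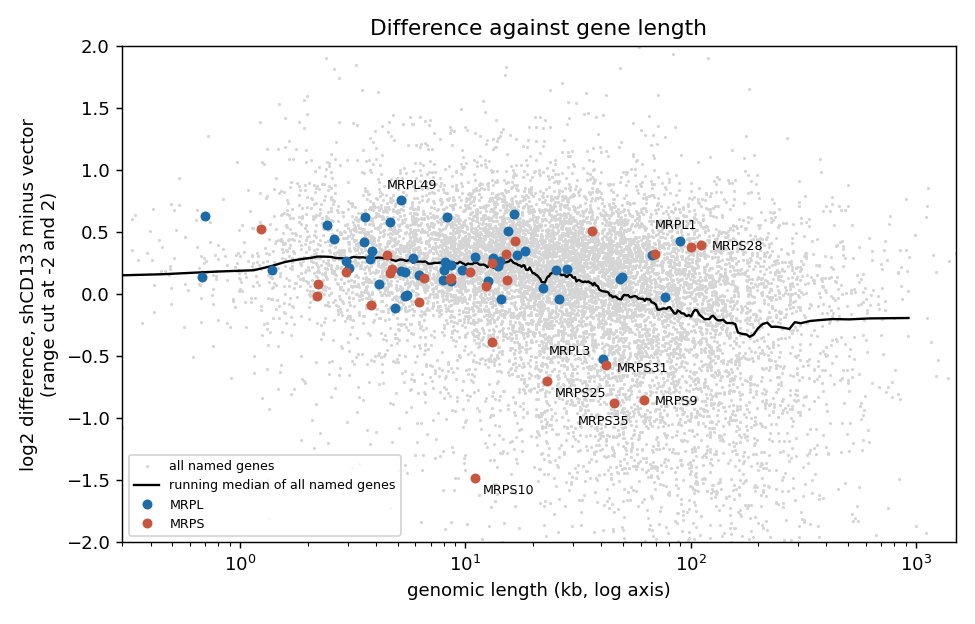
Log2 difference, shCD133 minus vector, against genomic length (kb, log axis) for all named genes (grey, cut at -2 and 2), with their running median (line) and the MRPL and MRPS genes marked. The line falls among long genes, while the median of the members is 0.19 under 8 kb and 0.20 from 16 kb on. MRPS10 lies at -1.48 among short genes, and MRPS28 and MRPL1 lie above the line among long genes.

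Promoters of 2 members from each end of the differences are shown. MRPS35 (-0.88), which was lower than MRPS9, held 0 matches to the marked letters and is not shown. The windows run from 250 bases before to 50 bases after the annotated start and come from RefSeq (GRCh38.p14), where 68 of the 76 members had one. Capitals mark the letters GCGCANGCG (NRF1), CCGGAAG (the ETS core that GABP binds) and AAGATGG (YY1), searched on both strands. NRF1, GABP and YY1 are factors known to act on nuclear genes for mitochondrial proteins. MRPS10 is at chr6:42217812-42218111 on the minus strand, MRPL47 at chr3:179604589-179604888 on the minus strand, MRPL49 at chr11:65121933-65122232 on the plus strand and MRPS9 at chr2:105037819-105038118 on the plus strand.
MRPS10: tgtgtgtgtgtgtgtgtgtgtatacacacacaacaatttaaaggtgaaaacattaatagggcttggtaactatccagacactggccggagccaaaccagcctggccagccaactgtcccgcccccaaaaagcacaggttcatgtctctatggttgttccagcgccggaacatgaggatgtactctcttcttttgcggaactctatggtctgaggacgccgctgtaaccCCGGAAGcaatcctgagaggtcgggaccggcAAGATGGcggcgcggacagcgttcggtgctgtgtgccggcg
MRPL47: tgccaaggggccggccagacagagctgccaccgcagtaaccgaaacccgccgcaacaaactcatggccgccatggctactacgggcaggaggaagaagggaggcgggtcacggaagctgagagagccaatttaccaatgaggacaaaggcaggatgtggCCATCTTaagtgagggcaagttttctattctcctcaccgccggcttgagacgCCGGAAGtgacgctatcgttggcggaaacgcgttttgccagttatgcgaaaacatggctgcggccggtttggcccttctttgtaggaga
MRPL49: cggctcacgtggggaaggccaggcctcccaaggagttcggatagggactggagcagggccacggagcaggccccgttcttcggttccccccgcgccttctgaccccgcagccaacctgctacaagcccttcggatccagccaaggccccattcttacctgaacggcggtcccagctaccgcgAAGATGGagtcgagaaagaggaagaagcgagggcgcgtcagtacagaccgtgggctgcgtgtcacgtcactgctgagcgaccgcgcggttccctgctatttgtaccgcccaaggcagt
MRPS9: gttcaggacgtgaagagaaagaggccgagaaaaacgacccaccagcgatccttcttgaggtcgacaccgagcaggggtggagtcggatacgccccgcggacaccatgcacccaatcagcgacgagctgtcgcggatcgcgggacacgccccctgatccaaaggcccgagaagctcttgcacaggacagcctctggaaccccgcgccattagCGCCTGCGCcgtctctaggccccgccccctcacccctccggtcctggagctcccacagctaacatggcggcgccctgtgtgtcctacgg

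MRPS10 (difference -1.48) and MRPL47 (0.65) each held 1 match to the ETS letters and 1 to the YY1 letters. The YY1 match read AAGATGG in MRPS10 and CCATCTT, the other strand, in MRPL47. MRPL49 (0.76) held 1 YY1 match and MRPS9 (-0.85) held 1 NRF1 match. The YY1 letters AAGATGG were in 23 of 68 member promoters (33.8%) and in 7.59% of the 9356 promoters of all named genes. The longer form AAGATGGCG was in 19.1% and 3.88%. Of the 24 matches in members, 16 began at or after the annotated start, where the letters can include a start codon. The ETS core CCGGAAG was in 28 member promoters (41.2%) and in 19.0% of all, and its longer form CCGGAAGT in 14.7% and 8.85%. No member had the ETS and YY1 letters overlapping on one strand as CCGGAAG running into AAGATGG. The NRF1 letters GCGCANGCG were in 19.1% of members and 15.0% of all, and GCGCATGCG in 4.41% and 3.81%. Of the other motifs, SP1 (GGGGCGGGG) was in 25% and 27.1%, CCAAT in 27.9% and 37.3%, and the E-box CACGTG in 8.82% and 10.4%.

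Over both series together, the median difference was 0.16 with the ETS core and 0.20 without it, and 0.18 with the YY1 letters and 0.19 without them. With the NRF1 letters GCGCANGCG it was 0.20, and without them 0.19. Within MRPS the median was 0.02 for 12 genes with the ETS core and 0.18 without it, and 0.26 for 8 genes with the SP1 letters and 0.08 without them. The NRF1 letters were in 3 MRPS promoters, with a median of -0.06, against 0.15 without them. Within MRPL the medians with and without were 0.19 and 0.23 for the ETS core, and 0.23 and 0.20 for SP1. For the NRF1 letters they went the other way, at 0.22 and 0.19. Over all named genes they were 0.11 and 0.12 for the ETS core, 0.17 and 0.10 for SP1, and 0.11 and 0.12 for NRF1. None of these gaps was tested, and a match is a description of the letters in the window.

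Many members share a start region with a neighbour on the other strand. Of 68 members with a window, 25 (36.8%) had a start on the opposite strand within 1000 bases upstream, beside 25.9% of all named genes. MRPL46 and MRPS11 are such neighbours of each other, with starts 320 bases apart, and differed by 0.12 and 0.25. MRPL49 starts 49 bases from FAU, which encodes a cytosolic ribosomal protein as a fusion. FAU was at 14.02 and 14.16 (0.15), while MRPL49 differed by 0.76. For 18 of these members the neighbour had a value, and in 13 of the 18 the signs were the same, with MRPL46 and MRPS11 counted from both sides. Like signs are frequent anyway where 78.9% of members and 59.2% of all named genes were above 0, so this count says little about neighbours. The neighbours had a median difference of 0.24. Spearman's rho between members and neighbours was -0.36, with MRPL46 and MRPS11 counted on both sides, and was not tested. As examples chosen after their values were seen, MRPS18B (0.12) and PPP1R10 (0.68) were both above 0, whereas MRPS27 (0.38) and its neighbour PTCD2 (-0.67), and MRPL50 (0.30) and ZNF189 (-0.52), went opposite ways. The median difference was 0.19 for members with such a neighbour and 0.19 for those without. The members lie on 21 chromosomes.

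Of 4 measured proteins of the particle with other symbols, 2 were above 0 and 2 below. CHCHD1, a small subunit protein, was at 9.12 with vector and 9.79 with shCD133 (0.67), and was 1.60-fold higher. DAP3, a GTP-binding small subunit protein, was at 13.02 and 12.91 (-0.11), PTCD3, a small subunit pentatricopeptide repeat protein, at 7.31 and 7.02 (-0.29), and GADD45GIP1 of the large subunit at 7.09 and 7.53 (0.44). PTCD3 and GADD45GIP1 were near the lower end of the scale, where differences are compressed.

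The genes that build and use the particle were taken as lists. Of 22 measured assembly factors 18 were above 0, with a median of 0.22. DDX28, a DEAD-box helicase of large subunit assembly, was higher by 0.61 (9.88 and 10.49) and YBEY by 0.56, although the other YBEY probe differed by -0.11. GTPBP10, a GTPase of large subunit assembly, was lower, at 7.85 and 7.21 (-0.64), and MTERF3 differed by -0.44. Assembly factors had 1 gene (4.55%) at least 1.5-fold higher and 1 (4.55%) at least 1.5-fold lower, beside 12.3% and 16.3% of all named genes.

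Among 14 measured translation factors none was 1.5-fold higher and 3 (21.4%) were 1.5-fold lower, where 12.3% and 16.3% of all named genes were, and the median was 0.10. GFM1, the mitochondrial elongation factor G that moves the ribosome along the messenger, was at 10.83 with vector and 9.59 with shCD133, a difference of -1.24 (2.36-fold lower). MTIF2, the initiation factor that brings the first transfer RNA, was at 11.55 and 10.48 (-1.07, 2.10-fold lower). GUF1, related to the bacterial elongation factor 4, was at 9.09 and 8.28 (-0.82). MTRFR, a ribosome rescue factor, was higher by 0.48, and TUFM, the elongation factor Tu, by 0.42. GFM1 and MTIF2 were therefore lower by more than every member except MRPS10 on its brightest probe, while TUFM and TSFM (0.41), its exchange factor, were higher. Each of these factors had 1 probe. GFM1 spans 51.1 kb and MTIF2 32.7 kb, against a median of 8.64 kb for the members, and the trend on gene length was not removed from these values. The running median of all named genes was -0.0072 near the length of GFM1 and 0.10 near that of MTIF2. With that trend removed the median of the 14 factors was -0.01.

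In the list of mitochondrial RNA synthesis and processing, 2 of 19 measured genes (10.5%) were at least 1.5-fold higher and 4 (21.1%) at least 1.5-fold lower, near the shares of all named genes (12.3% and 16.3%), with a median of 0.20. TEFM, the elongation factor of mitochondrial transcription, was at 9.38 and 10.07 (0.70), and FASTK at 9.98 and 10.61 (0.63, 0.52 to 0.81 over 3 probes). PNPT1, the mitochondrial polynucleotide phosphorylase, was at 12.47 and 11.12 (-1.35, from -1.60 to -0.83 over 3 probes). LRPPRC, which stabilizes mitochondrial messengers, was at 10.56 and 9.63 (-0.92). MTPAP, the mitochondrial poly(A) polymerase, differed by -0.74, and PRORP, the catalytic subunit of mitochondrial RNase P, by -0.69. PNPT1 was lower on every probe.

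Of 9 measured regulators of mitochondrial biogenesis, 4 were above 0 and the median was -0.08. GABPB2, a partner of the ETS factor GABPA, was at 13.15 and 11.95 (-1.20, 2.29-fold lower) on 1 probe. GABPA itself differed by -0.38, ESRRA, a nuclear receptor, by 0.40, NRF1 by 0.46 at a low level (7.31 and 7.77) and YY1 by -0.45, although the other YY1 probe differed by 0.21. MYC differed by 0.29 (its other probe 0.53).

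**Figure D5:**
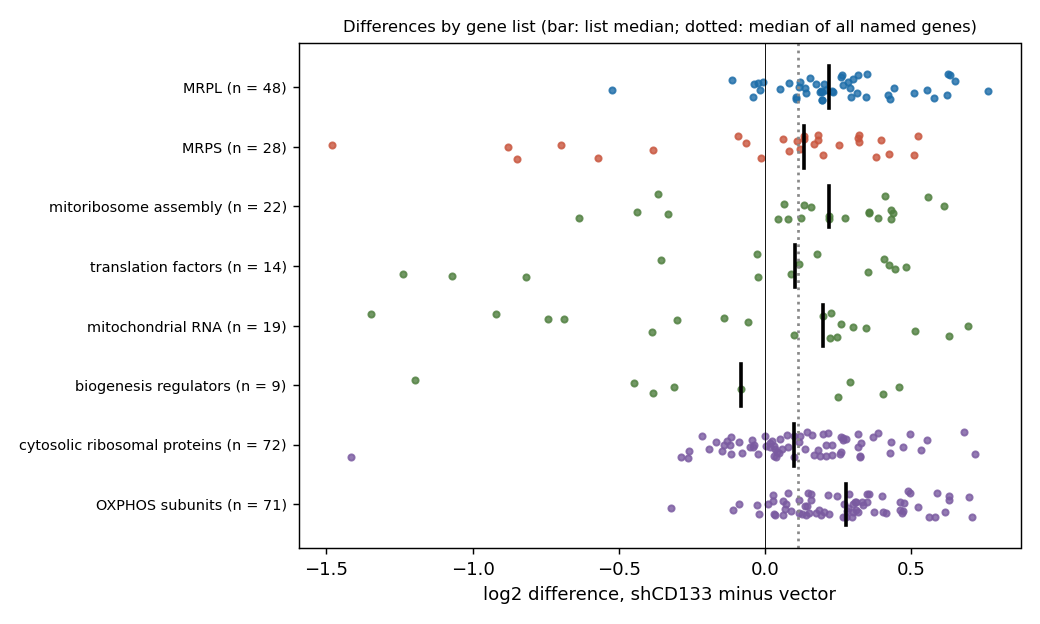
Log2 difference, shCD133 minus vector, of each gene in the MRPL and MRPS series, in 4 lists of related genes, and in the cytosolic ribosomal protein and oxidative phosphorylation (OXPHOS) genes, with list medians (bars) and the median of all named genes (dotted, 0.11). The MRPL and OXPHOS points cluster tightly. MRPS, translation factors, mitochondrial RNA genes and biogenesis regulators have tails toward -1 and lower. The cytosolic ribosomal proteins also have a gene there, RPS23 at -1.42, near MRPS10 at -1.48.

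Beside the sets most like it, the mitochondrial ribosome lay between cytosolic ribosomal proteins and the respiratory chain. The 72 cytosolic ribosomal protein genes had a median difference of 0.10, with 0.16 for 46 RPL genes and 0.02 for 26 RPS genes. The 71 OXPHOS subunits had a median of 0.28, and 66 of them were above 0. The median gene length was 5.05 kb for cytosolic ribosomal proteins and 9.24 kb for OXPHOS subunits. In the 72 cytosolic genes 2 (2.78%) were at least 1.5-fold higher and 1 (1.39%) lower, the small subunit gene RPS23 at -1.42. Among the OXPHOS subunits 6 (8.45%) were higher and none lower. All these shares were below those of all named genes (12.3% higher and 16.3% lower). No difference between these sets was tested.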

How the data were processed

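Total RNA was labelled with biotin and read on Illumina bead arrays, 1 per condition, per the labels' protocols. The values used were the log2 intensities deposited by the authors, which were normalized before deposit. The log base was read from their range, and the sorted values of both arrays agreed within 0.00044, as after quantile normalization. GenomeStudio 2011.1 is named in the submitters' processing notes, without its role. Of 47323 probes 19665 had values, and the sources used here do not give the filter. A further 4 columns matched neither sample's labels and were not used, so detection calls were not available here.

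Of the probes with values, 15205 had 1 symbol in the platform annotation, updated by gene ID to RefSeq (GRCh38.p14). Members had 102 probes with values and 8 without. Differences were computed in Python 3.11.15 with pandas 2.3.3. With 1 array per group nothing was tested, and precision is limited by the number of arrays. Trends were removed as a running median over 501 genes, checked on simulated data. In full were named the 6 highest and 6 lowest genes of each series and those at least 1.5-fold different, and in each list the 4 largest. Stalk, protuberance and neighbouring genes, MRPL44, MRPL45, MRPL58, TUFM, TSFM, GABPA and MYC were named after their values were seen. Members and lists were chosen with earlier results of these data known. Alternatives covered probe choice, fold size, centring, both trends, background, low values and membership. Some sequences and genes, such as AURKAIP1 and HNF4A, were not analysed here.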

Additional observations from a re-analysis of the deposited data

How the results depend on the processing

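With 1 array per condition no value has a replicate error, and the disagreement of probes leaves out variation between cultures. Quantile normalization hides a shift shared by most genes. The MRPL and MRPS medians (0.22 and 0.13) were 0.10 and 0.020 after centring on the median gene, 0.0042 and -0.12 with the trend on gene length removed, and 0.077 and -0.0024 once the trend on level was removed. The MRPS median thus changed sign under both trend removals, and the cause was not tested. The gap between the medians (0.08) ranged from 0.05 with the lowest probe to 0.13 with the length trend removed, while centring and the low-level filter, which left out no member, could not move it. The 5 members at least 1.5-fold higher became 1 after centring, 0 with either trend removed, 0 at 2-fold and 9 with background taken off. The 4 lower became 1 at 2-fold. With the length trend removed, 33 members rather than 60 were above 0. Of 24 members named in full, 23 kept their sign with the mean over probes and with the lowest probe (not MRPL45) and with the length trend removed (not MRPL48). The lowest probe and MRPL20-AS1 were added as alternatives after seeing the data. No paired analysis was possible because each group has 1 sample.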

Other observations

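Transcripts named after members were kept apart. MRPL20-AS1, an antisense RNA whose symbol begins like a member's, was at 10.72 with vector and 11.39 with shCD133, a difference of 0.67, while MRPL20 differed by 0.17 on its brightest probe and 0.39 on the other. The pseudogene MRPL42P5 was at 7.35 and 7.12 (-0.23), near the lower end of the scale, while MRPL42 differed by 0.12.

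Chromosome 3 held 4 members, a grouping looked at after the values were seen. MRPL3 (-0.52), MRPS22 (-0.38) and MRPS25 (-0.70) were below 0 and MRPL47 (0.65) was above it, with a median of -0.45, while the 681 named genes of that chromosome had a median difference of 0.02. The 8 members on chromosome 2 had a median of 0.33, beside 0.0097 for the 766 named genes there.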
